A study of Rattus norvegicus with 12 samples.

Results

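Heat shock proteins and molecular chaperones were followed in lung tissue of wild-type male Sprague Dawley rats of 250 to 350 g, on 12 Affymetrix arrays. The genes were chosen by symbol in the array's annotation: symbols beginning with Hspa, Hspb, Hspd, Hspe, Hsph, Hsp90, Dnaja, Dnajb or Dnajc, the Cct genes, Tcp1, Bag3, Chordc1, Hsf1 and Hsf2. In all 116 probe sets matched, which stood for 76 of the 14217 genes of the table, and the probe set of the highest mean was used for each gene. Of the 76 genes, 47 had 1 probe set and 29 had several. The means of 6 members lay below the 25th percentile of all gene means, 6.56 on the log2 scale.

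There were 4 groups of 3 arrays by the labels. The sham group consisted of control animals. In the BD group brain death was induced by inflating a balloon catheter placed outside the dura. The SEW group received SEW-2871, an agonist of the sphingosine 1-phosphate receptor 1, by vein at 0.1 mg/kg, and the BD/SEW group received that dose with a delay of 15 min from brain death. Neither the time of tissue removal nor a sham operation of the SEW animals is given in the labels, so agonist and operation cannot be told apart in comparisons of SEW with sham or with BD/SEW. The labels also do not say that the arrays came from separate animals, and the p-values then reflect only how much these samples varied, which may be technical.

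Chaperones bind unfolded or newly made proteins and help them fold. HSP70 proteins do this in cycles of ATP hydrolysis that J-domain proteins (DNAJ) start and nucleotide exchange factors such as the HSP110 proteins end, HSP90 acts later on selected clients, and small heat shock proteins hold unfolded proteins in soluble form. The cytosolic chaperonin CCT, the mitochondrial pair HSP60 and HSP10 and the chaperones of the endoplasmic reticulum serve their own compartments. Under heat or other proteotoxic stress the transcription factor HSF1 binds heat shock elements, repeats of a short inverted unit, in the promoters of many of these genes, while the unfolded protein response raises those of the endoplasmic reticulum. The lung holds many cell types, and in such tissue fewer cells of a type and less RNA per cell cannot be told apart.

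Some arrays were high in cardiac muscle and adipose markers or stood apart. The source of these transcripts is not given in the labels and was not tested. The mean of 19 cardiac muscle markers reached 11.30 in BD replicate 2 and 9.35 to 10.33 in sham, and the remaining arrays had 6.02 to 8.02. The mean of 11 adipose markers was 9.19, 8.60 to 9.65 and 6.67 to 7.42 in the same order. The mean of 12 alveolar epithelial markers lay between 12.65 and 13.23 in all arrays, as the label lung asks. The lowest weights that limma gave to arrays were 0.247 for sham replicate 3 and 0.318 for SEW replicate 2.

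The members differed most in 1 array. In SEW replicate 2 the mean of the 76 members was 9.80 on the log2 scale, and it lay between 9.21 and 9.35 in the other 11 arrays. Over all genes the mean in that array, 8.27, was within the range of the others, 8.26 to 8.31. SEW replicate 2 was the highest of the 12 arrays for 37 of the 76 members (48.7%), beside 17.4% of all genes. For 14 members (18.4%) it stood at least 1 log2 unit, above every other array, beside 0.422% of all genes (60 of 14217), and no other array stood so far above the rest for any member. Since this concerns a single array, it is a description with no test, and an array of the SEW group was already known to be high in heat shock genes when the members were chosen.

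**Figure D1:**
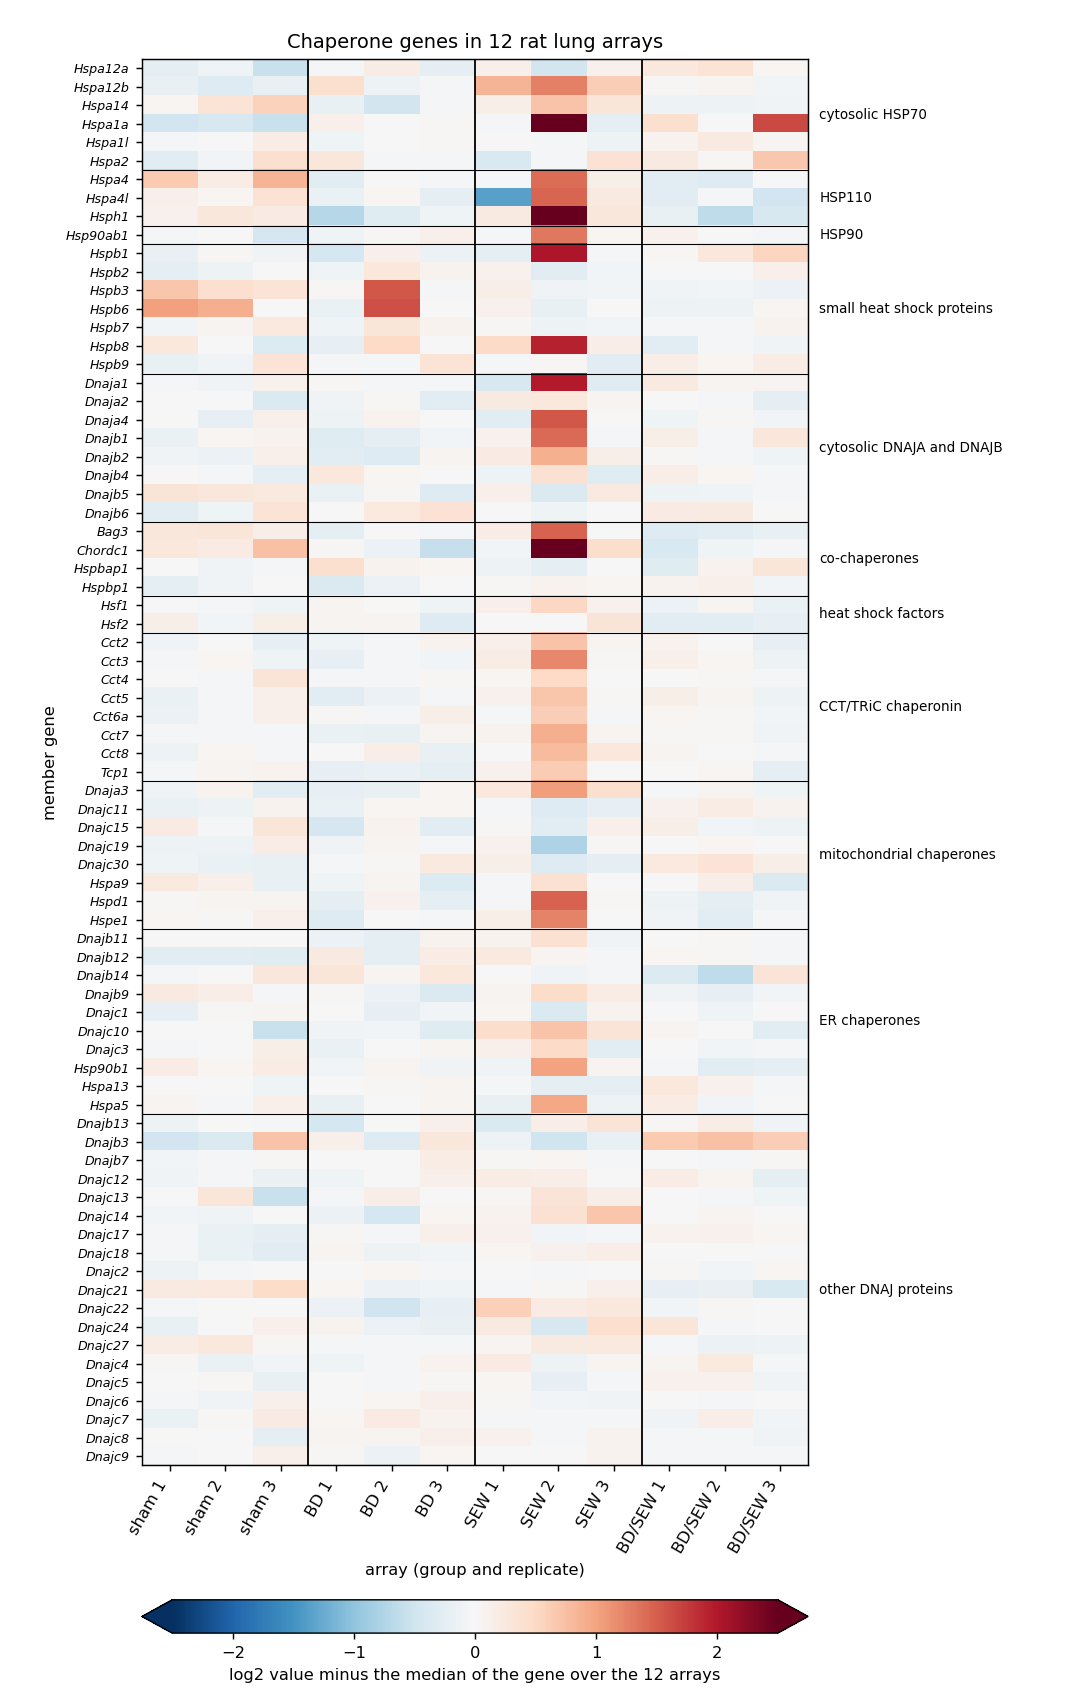
Log2 value of each of the 76 members in each of the 12 arrays (columns, by group and replicate), less the median of that gene over the 12 arrays; rows are grouped by protein family or compartment, and the colours end at the limits of the bar. The column of SEW replicate 2 is high for Hspa1a, the HSP110 proteins, Hsp90ab1, the CCT subunits and the mitochondrial pair, and the block of other DNAJ proteins shows no such column.

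The members farthest from the other arrays were Hspa1a and Hsph1. Hspa1a, the stress-inducible cytosolic HSP70, measured 9.40, 9.47 and 9.31 in sham, 10, 9.87 and 9.91 in BD, 9.83, 14.10 and 9.65 in SEW and 10.27, 9.88 and 11.53 in BD/SEW. SEW replicate 2 was thus 18.8-fold above the median of the other 11 arrays, and BD/SEW replicate 3 came next. In this probe set the sham arrays were the lowest of all. Hsph1, an HSP110 protein that exchanges the nucleotide of HSP70, measured 10.71, 10.90 and 10.82 in sham, 9.90, 10.30 and 10.51 in BD, 10.83, 13.64 and 10.89 in SEW and 10.42, 9.98 and 10.21 in BD/SEW. It was 8.75-fold above that median in SEW replicate 2 and not raised in BD/SEW replicate 3. The related Hspa4l was 9.42 in SEW replicate 2 and 8.34 at most elsewhere, with its lowest value, 6.61, in SEW replicate 1. Hspa4, the third HSP110 member, was also highest in SEW replicate 2 (9.58, next 9.04). Of the other cytosolic HSP70 members Hspa12b and Hspa14 were highest in SEW replicate 2, by 0.42 and 0.14, and Hspa2, Hspa1l and Hspa12a differed there from the median of the other arrays by -0.06, -0.06 and -0.49.

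**Figure D2:**
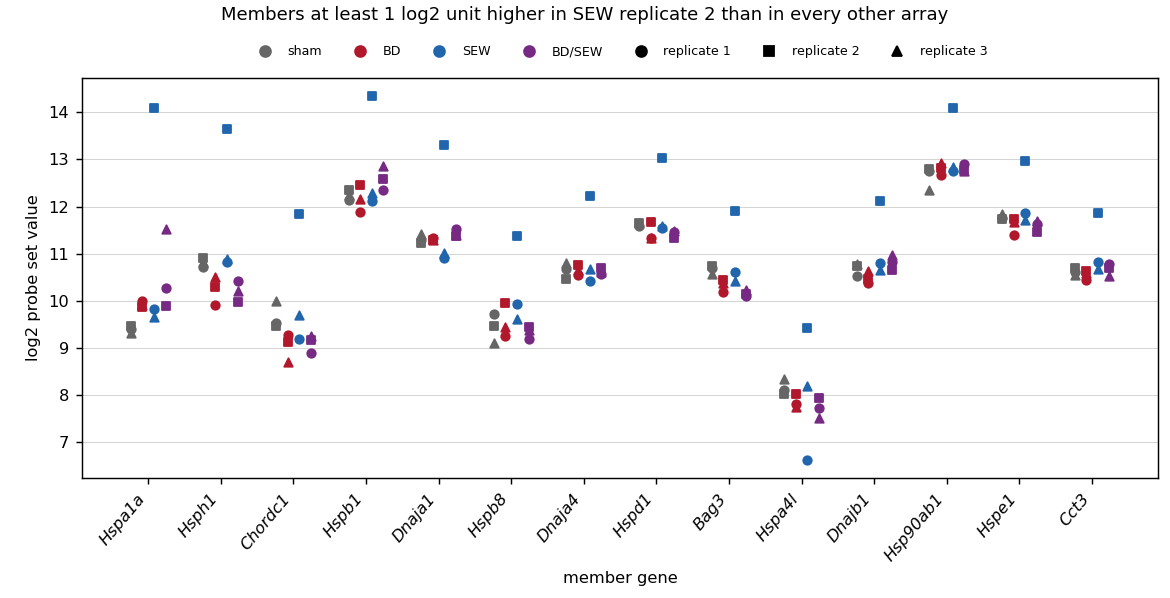
Log2 probe set values (vertical axis) of the 14 members for which SEW replicate 2 stood at least 1 log2 unit above every other array; colours give the group and shapes the replicate. The blue square of SEW replicate 2 lies alone at the top of each column, and in Hspa1a the purple triangle of BD/SEW replicate 3 comes second at 11.53.

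Among small heat shock proteins the difference was seen in Hspb1 and Hspb8, both of which take part in the response to stress. Hspb1 (HSP27) was 12.13, 12.36 and 12.24 in sham, 11.88, 12.45 and 12.17 in BD, 12.11, 14.35 and 12.29 in SEW and 12.36, 12.58 and 12.86 in BD/SEW. Hspb8, which works with the co-chaperone BAG3 in selective autophagy, was 11.38 in SEW replicate 2 and between 9.11 and 9.95 in the others. The highest values of Hspb1 after SEW replicate 2 were those of BD/SEW replicates 3 and 2. The other 5 small heat shock proteins, Hspb2, Hspb3, Hspb6, Hspb7 and Hspb9, were not highest in that array.

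Co-chaperones of HSP70 and HSP90 followed. Chordc1, an HSP90 co-chaperone, was 9.52, 9.46 and 10 in sham, 9.28, 9.12 and 8.69 in BD, 9.19, 11.85 and 9.69 in SEW and 8.88, 9.16 and 9.24 in BD/SEW. Bag3, an HSP70 exchange factor, was 11.90 in SEW replicate 2 and 10.10 to 10.73 elsewhere. Dnaja1, a cytosolic J-domain partner of HSP70, was 11.28, 11.22 and 11.42 in sham, 11.34, 11.29 and 11.29 in BD, 10.91, 13.30 and 11.01 in SEW and 11.53, 11.38 and 11.39 in BD/SEW. In this gene the other SEW arrays were the lowest of the 12, so the SEW group held both ends of the range. Dnajb1, the main heat-inducible J protein, was 12.11 in SEW replicate 2, 10.98 in BD/SEW replicate 3 and 10.38 to 10.83 in the others. Dnaja4 reached 12.22 (next 10.79), and Hsp90ab1, the constitutive cytosolic HSP90, 14.10 (next 12.92). Dnaja2, Dnajb2 and Dnajb4 were also highest in SEW replicate 2, by 0.03, 0.68 and 0.11, and Dnajb5 and Dnajb6 were not. Of the co-chaperones Hspbp1 and Hspbap1 neither was highest there.

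In the probe sets used, all 8 measured subunits of the chaperonin CCT, which folds actin and tubulin, were highest in SEW replicate 2, by smaller steps. The second probe set of Cct8 was instead at its lowest there (8.81). Cct3 stood 1.03 above the next array, Cct7 0.82, Cct2 0.60, Cct5 and Tcp1 0.54 each, Cct8 0.53, Cct6a 0.47 and Cct4 0.19. For Cct4 the value was 12.34, with 11.78 to 12.15 in the others. In mitochondria Hspd1 (HSP60) and Hspe1 (HSP10) stood 1.37 and 1.10 above the next array, at 13.04 and 12.96, and Dnaja3 and Hspa9 by 0.64 and 0.14. Dnajc19, Dnajc11, Dnajc15 and Dnajc30, mitochondrial J proteins, were below the median of the other arrays there, Dnajc19 at 9.53 with 10.18 to 10.50 in the others.

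Of 10 chaperones of the endoplasmic reticulum 6 were highest in SEW replicate 2 and none by 1 log2 unit. Hspa5 (BiP), the HSP70 of that compartment, was 13.52 there and 12.36 to 12.74 elsewhere, and Hsp90b1 (GRP94) 13.09 and 11.82 to 12.28. Of the 19 other DNAJ proteins, many of them specialised in splicing, translation or vesicle uncoating, Dnajc13 alone was highest in that array, by 0.02, and their median difference from the other arrays was -0.020. Dnajc8 was 10.80 with 10.59 to 10.97 in the others. The 2 heat shock factors differed little: Hsf1 was 8.96 in SEW replicate 2 (8.26 to 8.57 elsewhere) and Hsf2 9.54 (9.21 to 9.84).

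Related genes outside the symbol rule were read from lists. These lists were chosen when the pattern of SEW replicate 2 had already been seen, so their counts describe that array and are no independent support. Of 17 measured HSF1 targets and HSP90 partners 12 were highest in SEW replicate 2, and 6 stood at least 1 log2 unit above every other array: Stip1 (12.19, next 9.62) and Fkbp4 (11.92, next 9.45), both HSP90 co-chaperones, Ahsa1, Cacybp, St13 and the collagen chaperone Serpinh1. Among the members, 12 of 12 measured HSF1 targets were highest there, 11 of them by at least 1. Of 19 genes of the unfolded protein response 14 were highest and 2 stood apart so far, Ddit3 (10.25, next 8.78) and Creld2 (10.98, next 9.78). Of 14 immediate early genes 2 were highest and none stood apart. When all genes were ranked by their distance from SEW replicate 2 to the next array, members were 4 of the first 10, 7 of the first 20 and 13 of the first 50, and the first was P4ha1, a collagen prolyl hydroxylase (12.88, next 10.03; chosen after its values were seen). The mean of 7 neutrophil markers was 10.56 in SEW replicate 2 and 8.55 and 8.94 in the other SEW arrays, with 9.77 to 11.68 in the other groups, and 6 of 9 macrophage markers were highest there. The part of these in the values of the members was not tested.

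The promoters of members that stood apart were searched for heat shock elements, since these genes were high together. RefSeq promoter windows (GRCr8, 250 bases before to 50 after the annotated start) were found for 64 of the 76 members. The element was written as 3 alternating units, GAANNTTCNNGAA or TTCNNGAANNTTC, and in a looser form as 2, GAANNTTC or TTCNNGAA. On either strand these letters read the same or change places. The 3-unit form was in 5 of the 14 members that stood apart (35.7%), in 1 of the 50 other members with a window (2%) and in 0.794% of all 27457 windows. The 2-unit form, which every 3-unit match contains, was in 10 of 14 (71.4%), 9 of 50 (18%) and 16.7%. The Hspd1 and Hspe1 windows are not independent, since the genes start 289 bases apart and their windows share 211 bases. The Hspa1a window held neither form. Of the 14 members that stood apart, 11 were on the list of HSF1 targets, as were all 5 with the 3-unit form. Since that list holds known targets of HSF1, matches were likely from the start, and these shares are no independent support.

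The following sequences show where the letters lie in genes of different promoter layout, with Hspa5 for comparison. Each is printed 5′ to 3′ on the strand of the gene, and capitals mark the heat shock element units, or in Hspa5 the ER stress response element. The first is the 250 bases before the start of Hsph1, plus strand, chr12:10427118-10427367. Those before Hspe1 (plus strand, chr9:64084077-64084326), Hspb1 (minus strand, chr12:26432302-26432551) and Hspa5 (plus strand, chr3:38452766-38453015) follow in the same form. Of Chordc1 (plus strand, chr8:23650828-23650857) and Dnaja1 (plus strand, chr5:60638410-60638439) the 30 bases around the matches just after the annotated start are given.
Hsph1: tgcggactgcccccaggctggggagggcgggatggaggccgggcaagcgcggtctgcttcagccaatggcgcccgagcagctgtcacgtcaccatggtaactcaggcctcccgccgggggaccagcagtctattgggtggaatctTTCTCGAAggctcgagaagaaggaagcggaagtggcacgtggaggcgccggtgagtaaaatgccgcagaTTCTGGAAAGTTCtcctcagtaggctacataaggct
Hspe1: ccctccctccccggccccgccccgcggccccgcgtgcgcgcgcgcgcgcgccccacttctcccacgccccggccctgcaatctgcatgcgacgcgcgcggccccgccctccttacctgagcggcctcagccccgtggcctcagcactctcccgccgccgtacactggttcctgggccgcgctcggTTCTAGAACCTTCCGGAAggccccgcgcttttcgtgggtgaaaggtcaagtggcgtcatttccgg
Hspb1: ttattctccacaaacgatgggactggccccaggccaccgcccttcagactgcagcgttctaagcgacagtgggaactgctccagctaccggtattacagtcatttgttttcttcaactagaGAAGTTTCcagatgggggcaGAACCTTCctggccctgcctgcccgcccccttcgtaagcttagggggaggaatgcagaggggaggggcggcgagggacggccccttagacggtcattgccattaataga
Chordc1: ccgGAACGTTCGGGAAGATTCCTGAAgcag
Dnaja1: gcgGAACTTTCCAGAAcgctcggtgggtgg
Hspa5: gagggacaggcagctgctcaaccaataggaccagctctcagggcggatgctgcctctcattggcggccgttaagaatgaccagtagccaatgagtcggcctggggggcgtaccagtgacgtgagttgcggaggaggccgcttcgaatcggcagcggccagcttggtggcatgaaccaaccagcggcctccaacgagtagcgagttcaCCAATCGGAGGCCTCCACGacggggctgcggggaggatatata

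In Hsph1 and Hspe1 a run of the units begins at positions -36 and -65 from the start, in Chordc1 several overlapping runs lie behind it, and Hspb1 has separate 2-unit matches in place of a 3-unit one. The ER stress response element was in 0 of the 14 members that stood apart and in 3 other members, Hspa5, Hsp90b1 and Dnajc3, all of the endoplasmic reticulum, and in 0.0765% of all windows. A match shows only that the letters are present.

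The comparison of BD with sham addressed brain death without the agonist. No member was called by limma at an adjusted p under 0.05: 0 of 76 rose, beside 0.211% of all genes, and 0 fell, beside 0.38%. At an unadjusted p under 0.05 there were 6 members (7.89%, beside 11% of all genes), and 0 were called in any of the alternative fits. The median difference of the members was 0.000 and that of all genes 0.003. The arrays of the groups did not overlap for 8 members that were higher in BD (10.5%, beside 7.95% of all genes) and 11 that were lower (14.5%, beside 7.74%). The largest differences among them were Hspa4 (-0.67 ± 0.31, log2 difference ± SE, n = 3 per group, adjusted p = 0.469 by limma), Chordc1 (-0.63 ± 0.51) and Hsph1 (-0.57 ± 0.57) downwards and Hspa1a (0.53 ± 0.91), Dnajb12 (0.35 ± 0.12) and Hspa12b (0.31 ± 0.17) upwards. For Hspa1a the sham and BD arrays did overlap in a probe set shared with Hspa1b, which is not counted among the members. The errors of Hspa1a, Hsph1 and Chordc1 come from a spread that all 12 arrays share, SEW replicate 2 included. Without that array the error of Hspa1a in BD/SEW against sham was 0.32 in place of 0.91.

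Hsph1 was lower in the brain-death arrays with and without the agonist. In its brighter probe set all 6 arrays with brain death, 9.90 to 10.51, lay below all 6 without it, 10.71 to 13.64. In the dimmer probe set sham replicate 3, at 8.0, broke this order, since BD replicates 2 and 3 (8.29 and 8.12) and BD/SEW replicate 1 (8.32) were above it. The same order held for Hspa14, an HSP70 protein bound to ribosomes, with 8.54 to 8.95 against 9.04 to 9.71, and for Dnajc27, a small GTPase with a J domain, with 8.57 to 8.70 against 8.74 to 8.98. These 3 of 76 members (3.95%) compare with 2.32% of all genes, and 0 members had the reverse order, beside 1.4% of all genes. This ordering was chosen after the values were seen.

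The agonist without brain death was addressed by SEW against sham. Of 76 members 2 rose (2.63%, beside 3.4% of all genes) and 0 fell (beside 2.43%), and 14 (18.4%, beside 25.6%) had an unadjusted p under 0.05 by limma in either direction. Hspa12b, an HSP70 family protein best known from endothelial cells, was 6.87, 6.74 and 6.86 in sham, 7.45, 6.93 and 7.03 in BD, 7.90, 8.32 and 7.67 in SEW and 7.08, 7.13 and 6.98 in BD/SEW. The SEW arrays were the 3 highest of the 12 and overlapped no other group. Hspa12b rose by 1.14 ± 0.17 (adjusted p = 0.0062 by limma) and was called in 12 of 12 fits with 1 array left out. Dnajc10, a disulfide reductase of the endoplasmic reticulum, was 10.15, 10.14 and 9.59 in sham, 10.05, 10.07 and 9.84 in BD, 10.57, 10.86 and 10.46 in SEW and 10.20, 10.14 and 9.86 in BD/SEW. It rose by 0.67 ± 0.17 (adjusted p = 0.0411 by limma), and the SEW arrays were again the highest in this probe set. But it was called in 2 of 12 fits with 1 array left out and in 0 of the 6 that left out a sham or SEW array. In its dimmer probe set BD replicate 1 (9.68) and BD/SEW replicate 1 (9.80) were above SEW replicate 1 (9.67). Over every probe set or with the mean of probe sets Dnajc10 was not called, and Dnajc14 was. With the mean of the cardiac markers as a covariate neither Hspa12b (0.88 ± 0.21, adjusted p = 0.15 by limma) nor Dnajc10 (0.69 ± 0.24, adjusted p = 0.291) was called. Over all genes the calls of this comparison went from 830 to 24 with that covariate. The marker mean did not overlap between sham and SEW, so markers and groups cannot be told apart here.

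Members higher in SEW than in sham without overlap numbered 15 (19.7%, beside 16.4% of all genes) and those lower 3 (3.95%, beside 10.6%). The median difference was 0.12 with all arrays, against 0.017 over all genes, and 0.012 without SEW replicate 2. Hspa1a had the largest mean difference, 1.80 ± 0.91 (adjusted p = 0.242 by limma). Without SEW replicate 2, with only SEW replicates 1 and 3 left in the group, it was 0.35 ± 0.36. Hsph1 went from 0.98 ± 0.57 to 0.05 ± 0.17 and Dnaja1 from 0.43 ± 0.47 to -0.35 ± 0.09 (adjusted p = 0.0627). Lower without overlap were Hspb3 (-0.49 ± 0.32), Dnajb5 (-0.29 ± 0.15) and Dnajc21 (-0.27 ± 0.11).

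**Figure D3:**
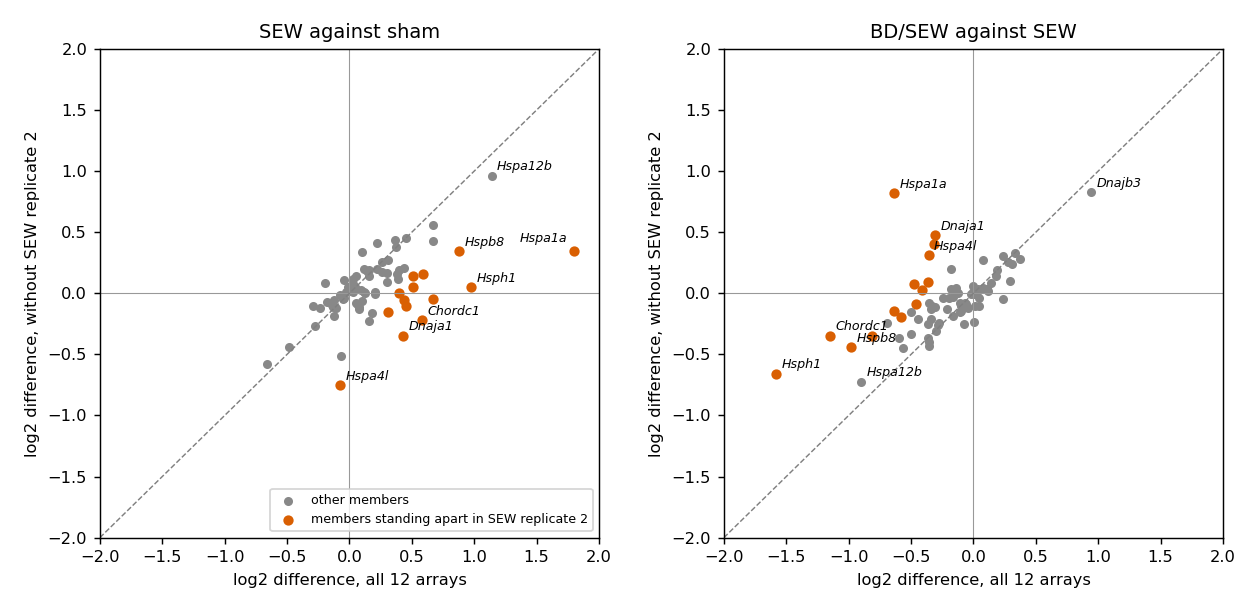
Log2 difference of each member with all 12 arrays (horizontal axis) and without SEW replicate 2 (vertical axis), in SEW against sham (left) and BD/SEW against SEW (right); the dashed line marks equal values, and orange points are the 14 members that stood apart in that array. The orange points lie off the line, Hspa1a moving from 1.80 to 0.35 on the left, and Hspa12b lies nearer to it, at 1.14 and 0.96.

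Hspa12b had 3 probe sets. The one of middle level was 6.40, 6.13 and 6.19 in sham and 6.98, 7.95 and 6.99 in SEW, in the direction of the brightest. The dimmest, with a mean of 5.71, was 5.58, 5.72 and 6.13 in sham and 5.77, 5.33 and 5.48 in SEW and did not follow. The mean of 11 endothelial markers was 11.92 to 12.12 in SEW, 11.65 to 11.89 in sham, 11.72 to 11.93 in BD and 11.81 to 11.84 in BD/SEW. Of these markers 2 rose in SEW against sham, and the same number fell in BD/SEW against SEW. Their part in the Hspa12b values was not tested.

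**Figure D4:**
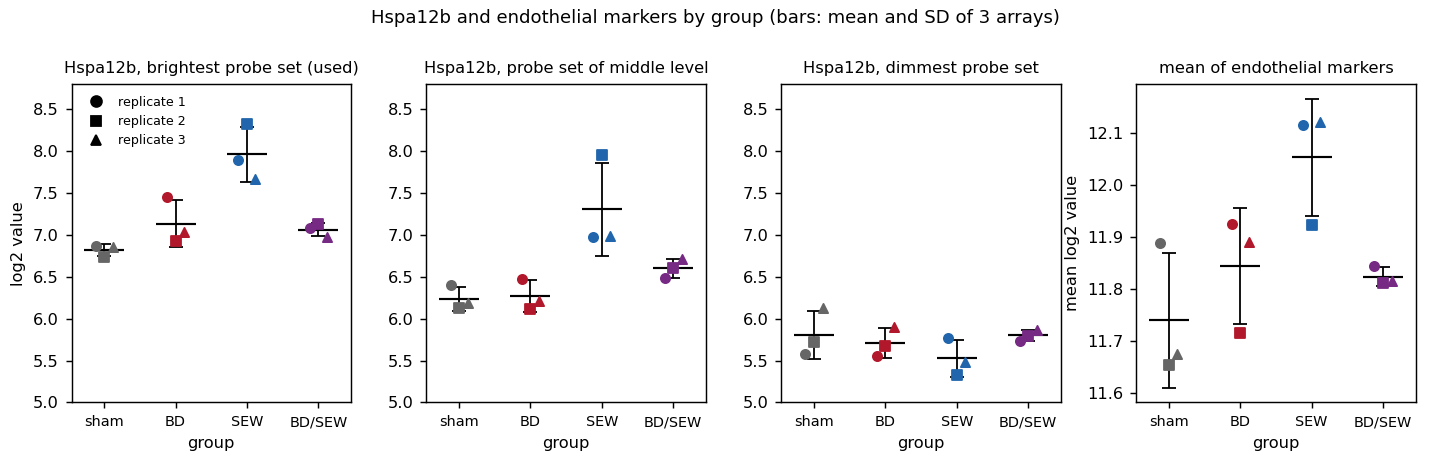
Log2 values of the 3 probe sets of Hspa12b (first 3 panels, on 1 scale) and the mean log2 value of the endothelial markers (last panel, own scale), by group; points are arrays, shapes are replicates, and lines with bars are the mean and SD of 3 arrays. SEW is the highest group for the brighter probe sets and for the marker mean, and not for the dimmest probe set.

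The agonist given after brain death was addressed by BD/SEW against BD. By limma 0 members rose, beside 0.0141% of all genes, and 0 fell, beside 0%. At an unadjusted p under 0.05 there were 2 (2.63%, beside 5.44% of all genes), and no alternative fit called any. The arrays did not overlap for 6 members that were higher (7.89%, beside 7.9% of all genes) and 3 that were lower (3.95%, beside 4.55%), which is near the background. The differences were led by Dnajb3 (0.64 ± 0.27), Dnajb1 (0.33 ± 0.29) and Dnajc22 (0.28 ± 0.13) upwards and by Hspb3 (-0.62 ± 0.32), Dnajc21 (-0.20 ± 0.11) and Dnajc8 (-0.14 ± 0.09) downwards. The median of the members was 0.028 and that of all genes 0.007.

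Brain death in the presence of the agonist was addressed by BD/SEW against SEW. Hspa12b fell by 0.90 ± 0.17 (adjusted p = 0.00645 by limma), 1 of 76 members that fell (1.32%, beside 5.04% of all genes), and was called in 12 of 12 fits with 1 array left out. Dnajb3, a J protein, was 6.81, 6.89 and 6.77 in BD/SEW and 6.02, 5.65 and 5.97 in SEW. It rose by 0.94 ± 0.27 (adjusted p = 0.0476), 1 of 76 that rose (1.32%, beside 4.75%). Its sham values were 5.68, 5.79 and 6.87 and its BD values 6.29, 5.83 and 6.43, so sham replicate 3 lay among the BD/SEW arrays, and the call was lost without any 1 of the 6 SEW and BD/SEW arrays. Its mean lies below the 25th percentile of gene means, where signal over background was not measured.

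The 22 members lower in BD/SEW than in SEW without overlap (28.9%, beside 18.6% of all genes) exceeded the 5 that were higher (6.58%, beside 13.2%), and 25 members (32.9%, beside 23.8% of all genes) had an unadjusted p under 0.05 in either direction. Among the lower were Hsph1 (-1.58 ± 0.57, adjusted p = 0.108 by limma), Hspb8 (-0.98 ± 0.37), Bag3, Hspd1, Hspe1, Hsf1 and Hsf2. The higher were led by Dnajb3, Dnajc11 (0.31 ± 0.11) and Hspa13 (0.28 ± 0.10), an HSP70 protein of microsomes. The median was -0.17 with all arrays, -0.078 without SEW replicate 2 and -0.007 over all genes. Without that array, with only SEW replicates 1 and 3 left in the group, 3 members were called, beside 1194 of all genes. That array was known to stand apart in heat shock genes before it was left out, and leaving it out also lowers their errors. Hspa12b fell by 0.72 ± 0.15, Hsph1 fell by 0.66 ± 0.17 (adjusted p = 0.0427) and Dnaja1 rose by 0.47 ± 0.09 (adjusted p = 0.00857), where with all arrays Dnaja1 had stood at -0.31 ± 0.47. Hspa1a turned from -0.63 ± 0.91 to 0.82 ± 0.36 and was not called in either fit. Outside the rule 2 of 19 genes of the unfolded protein response passed the test, Herpud1 (-0.65 ± 0.17), which serves protein degradation at the endoplasmic reticulum, and the stress kinase gene Eif2ak3 (-0.39 ± 0.10), and 0 of 17 HSF1 targets and HSP90 partners were called by limma (3 at an unadjusted p under 0.05).

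BD/SEW against sham sets the full treatment beside the control. Dnajc21, a J protein of ribosome assembly, was 7.74, 7.76 and 7.97 in sham, 7.56, 7.37 and 7.41 in BD, 7.48, 7.54 and 7.63 in SEW and 7.30, 7.32 and 7.12 in BD/SEW. The sham arrays were the highest of the 12 and the BD/SEW arrays the lowest. It fell by 0.58 ± 0.11 (adjusted p = 0.0199 by limma), the 1 member of 76 that fell (1.32%, beside 1.17% of all genes). With 0 that rose (beside 1.7%), 11 (14.5%, beside 17.5%) had an unadjusted p under 0.05 in either direction. With array weights 6 members rose, and 2685 of all genes were called in place of 408. The call of Dnajc21 was lost without any 1 of the 3 BD/SEW arrays and with the cardiac covariate (-0.68 ± 0.14, adjusted p = 0.128 by limma). Over all genes that covariate left 13 calls of the 408. Without overlap 7 members were higher (9.21%, beside 13.7%) and 15 lower (19.7%, beside 12.2%). The lower were led by Hspa4 (-0.76 ± 0.31), Hsph1 (-0.61 ± 0.57) and Hspb3 (-0.59 ± 0.32), and the higher by Hspa1a (1.17 ± 0.91), Hspa12a (0.51 ± 0.18) and Dnajc30 (0.40 ± 0.13). Leaving out SEW replicate 2, which is not in this comparison but feeds the shared spread, added Hspa4 (adjusted p = 0.0343) and Bag3 (-0.51 ± 0.10, adjusted p = 0.0185) to the calls. Over all genes the calls went from 408 to 634. The differences are the same in both fits. The comparison shares arrays with the comparisons already given, so these values do not add up as separate evidence.

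The test of the interaction asked whether the effect of brain death differed with the agonist. For Hspa12b it was 0.31 ± 0.17 without the agonist and -0.90 ± 0.17 with it, a difference of -1.21 ± 0.24 (adjusted p = 0.0409 by limma). This was the 1 member of 76 that was lower (1.32%, beside 0.0985% of all genes), and 0 were higher (beside 0.851%). At an unadjusted p under 0.05 there were 7 (9.21%, beside 12.5% of all genes). Hspa12b was called in 3 of 12 fits with 1 array left out, those without BD replicate 2, SEW replicate 2 or SEW replicate 3. It was not called with the cardiac covariate (-1.07 ± 0.23, adjusted p = 0.0834 by limma), with which calls over all genes went from 135 to 80. For Hspa1a the interaction was -1.17 ± 1.29 and for Hsph1 -1.01 ± 0.80, and 0.29 ± 0.48 and -0.083 ± 0.23 without SEW replicate 2. The median of the members was -0.093, against -0.020 over all genes.

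Immediate early genes, which respond within minutes to stimuli, were called in several comparisons. Dusp1 fell in BD against sham (1 of 14, beside 0.38% of all genes). Egr1, Nr4a3 and Zfp36 fell in SEW against sham (3 of 14, beside 2.43%). In BD/SEW against SEW Atf3, Egr1, Ier3, Junb and Zfp36 rose (5 of 14, beside 4.75%) and Dusp1 fell (1 of 14, beside 5.04%). In BD/SEW against sham Atf3 and Ier3 rose (2 of 14, beside 1.7%) and Dusp1 fell (1 of 14, beside 1.17%). Zfp36 was called in the interaction (1 of 14 that was higher, beside 0.851%). None of the 14 was called in BD/SEW against BD, where 3 had an unadjusted p under 0.05 by limma. The HSF1 targets, inside and outside the rule, had 0 calls by limma in all 6 comparisons with all arrays, with at most 5 of 12 and 4 of 17 at an unadjusted p under 0.05.

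A last group of members varied with cardiac muscle markers. Hspb6, Hspb7 in its dimmer probe set and Hspb3, small heat shock proteins of heart and skeletal muscle, had their highest values in BD replicate 2 and, with the exception of sham replicate 3 for Hspb6, their next in sham. Hspb6 was 9.79, 9.67 and 8.76 in sham, 8.61, 10.39 and 8.77 in BD, 8.88, 8.59 and 8.77 in SEW and 8.65, 8.65 and 8.82 in BD/SEW. The dimmer probe set of Hspb7 was 9.65, 9.86 and 9.38 in sham, 8.0, 10.59 and 8.02 in BD, 7.49, 7.34 and 8.50 in SEW and 8.07, 8.43 and 8.62 in BD/SEW. The brighter one, used in the fit, stayed between 8.53 and 8.97. Hspb3 was 5.44 to 5.78 in sham, 6.64 in BD replicate 2 and 4.94 to 5.24 in the others. Hspb2 did not follow in sham: it was highest in BD replicate 2 (7.31), but its sham values were 6.81, 6.92 and 7.07. Its BD/SEW values were 7.04, 7.07 and 7.18. The related Cryab, outside the rule, was likewise highest in BD replicate 2 (13.08). With all arrays none of Hspb6, Hspb7 and Hspb3 was called by limma in any comparison. Without BD replicate 2 Hspb3 fell in SEW against sham and in BD/SEW against sham. In BD/SEW against sham Hspb3 was also called when only the arrays compared were fitted, and Hspb6 with array weights. The part of cardiac muscle cells in these values was not tested.

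**Figure D5:**
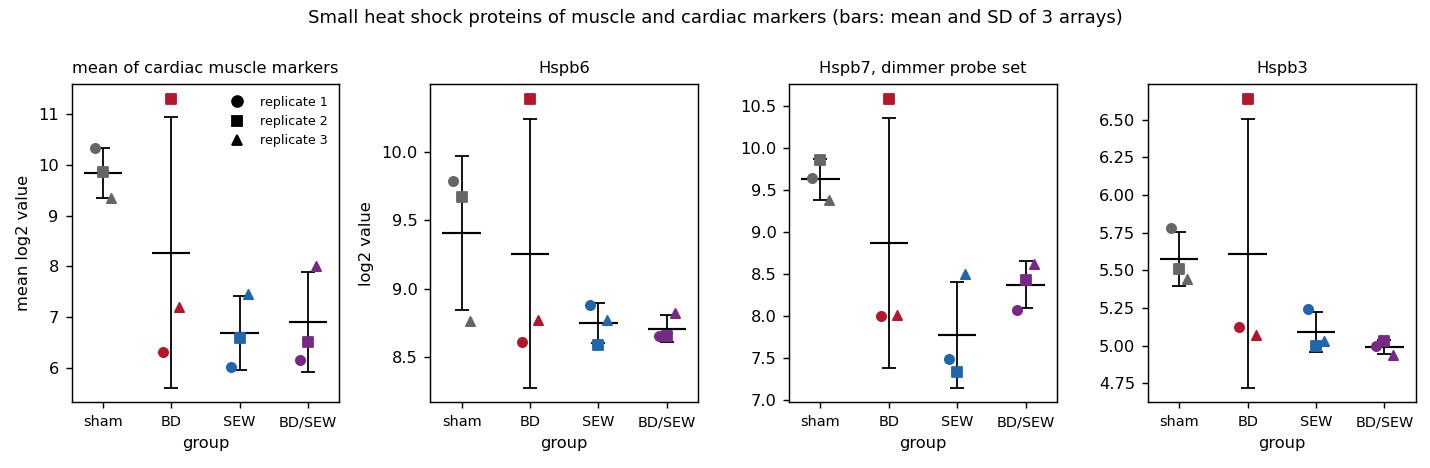
Mean log2 value of 19 cardiac muscle markers and log2 values of Hspb6, the dimmer probe set of Hspb7 and Hspb3, by group, each panel on its own scale; points are arrays, shapes are replicates, and lines with bars are the mean and SD of 3 arrays. BD replicate 2 is the highest point in every panel, and the sham arrays come next for the markers, Hspb7 and Hspb3.

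Several probe sets of a gene did not always tell the same. In SEW replicate 2 the dimmer probe sets of Hsph1, Hspb8 and Dnaja4 were also high, at 12.55, 9.74 and 10. The second probe set of Cct8 was 8.81 there, its lowest of the 12 arrays, and of the 4 probe sets of Hspa9 there 2 were at their highest (10.28 and 9.66), 1 at its lowest (6.68) and 1 within its range (5.64). A further 6 probe sets carried several symbols, of which at least 1 fitted the rule, and are not counted among the members. The one annotated to both Hspa1a and its near-identical neighbour Hspa1b was 13.78 in SEW replicate 2, 12.41 in BD/SEW replicate 3 and 9.24 to 10.10 in the others. In it sham was 9.24, 9.46 and 9.31 and BD 9.51, 9.40 and 9.32, so these groups overlapped. Since the 2 genes are nearly identical, the probe set named Hspa1a may also bind transcripts of Hspa1b. Those annotated to Hsp90aa1 and a pseudogene were 13.78 and 14.16 in SEW replicate 2, with at most 13.09 and 12.73 in the others.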

How the data were processed

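Expression was measured on 12 Affymetrix arrays, 3 per group, from 6 ug of total RNA each. The authors deposited log2 probe set values. Per the submitters' processing notes RMA, MAS5 and affy were used, with no version or role given, and the genome build is not given in the sources used here. Between arrays the deposited values at any rank were within 0.22, and raw scanner files were not used here. Probe sets were named from the platform annotation: of 31042, 20826 had 1 symbol, 436 several and 9780 none. All 76 members matched RefSeq by gene ID with the same symbol.

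For each gene the probe set of the highest mean was kept (14217 genes). All arrays entered 1 limma fit with a mean per group (R 4.3.3, limma 3.58.1, lmFit and eBayes, trend on), with Benjamini-Hochberg adjustment over all genes, with calls at an adjusted p under 0.05. "Rose" and "fell" are used for calls; ± is the standard error unless named otherwise. The scripts were tested on simulated data. The members and the lists (HSF1 targets, unfolded protein response, immediate early genes, markers of 10 cell types) were chosen with earlier results of these data known, and the pattern of SEW replicate 2 had been seen before. Named members are those called, those at least 1 log2 unit apart in 1 array, the one of the highest mean in each class, the 3 largest differences each way without overlap of arrays in each comparison, the 3 of the largest range, Hsf1 and Hsf2, unless said otherwise. Of the other marker lists, the mean of 10 smooth muscle markers was 9.94 to 10.66, of 7 ciliated cell markers 8.60 to 10.01, of 8 lymphocyte markers 7.05 to 7.63 and of 6 erythroid markers 6.40 to 7.83. The number of arrays limits the precision. Alternatives were another summary of probe sets, the compared arrays only, a replicate block, array weights, a filter on dim genes, no mean trend, other thresholds, quantile normalization, a cardiac covariate and each array left out.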

Additional observations from a re-analysis of the deposited data

Results flagged for a closer look

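With all arrays the effect of brain death on Hspa12b passed the interaction test of limma, which asks whether it differed with the agonist. The log2 difference was 0.31 for BD against sham and -0.90 for BD/SEW against SEW, a difference between them of -1.21 ± 0.24 (SE, n = 3 per group, adjusted p = 0.0409). In all 3 SEW arrays the gene was higher than in any other array. The adjusted p ranged from 0.032 to 0.12 when 1 array was left out. The call was lost in 13 of the 22 alternative settings, among them the mean of its probe sets (-0.52) and the cardiac covariate (-1.07). It was kept in 9, with the same direction in all 22. Of these 9, the setting with only the arrays compared repeats the main fit here, and -1.21 exceeds 1.5-fold. Those settings could not lose the call.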

How the results depend on the processing

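The count of members high in SEW replicate 2 did not depend on the settings tried: 14 to 20 probe sets or genes stood apart and 44.8% to 47.4% were highest there. In SEW against sham the 2 members that rose were 1 when only the arrays compared were fitted or at an adjusted p under 0.01, 4 with array weights and 0 with the cardiac covariate. In BD/SEW against SEW the 1 that rose was 5 with array weights and 0 over every probe set, with the mean of probe sets, without dim genes, at 0.01 or after quantile normalization, and the 1 that fell was 10 with array weights and 2 without dim genes or after quantile normalization. In BD/SEW against sham 6 rose with array weights, and the 1 that fell was 7 with array weights, 4 when only the arrays compared were fitted and 0 at 0.01, at 1.5-fold or more, or with the cardiac covariate. The interaction call was 0 over every probe set, with the mean of probe sets, at 0.01 and with the cardiac covariate. With a threshold of 0.01 or a fold the cause is the threshold, and with dim genes left out Dnajb3 is not tested; for the others the cause was not tested.

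With 1 array left out, 1 to 3 members rose and 0 to 1 fell in SEW against sham (median 0.012 to 0.181), 0 to 1 rose and 1 to 4 fell in BD/SEW against SEW (median -0.238 to -0.078), 0 to 1 rose and 0 to 3 fell in BD/SEW against sham, and 0 to 1 fell in the interaction. Without SEW replicate 2 members such as Dnaja1 (0.47), Hspa1a (0.82) and Hspa4l (0.31) turned from lower to higher in BD/SEW against SEW. Over all fits with 1 array left out the median of BD against sham, 0.000 with all arrays, ran from -0.051 to 0.02. Hspa12b kept its call in BD/SEW against SEW in 22 of 22 settings and in SEW against sham in 21. The setting of 1.5-fold or more could not lose these calls, since both differences were larger.

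Whether the replicate numbers pair the arrays was not settled. Same-numbered arrays of different groups correlated in their deviations from the group means at -0.186 to 0.375, with a median of 0.088. For differently numbered arrays the range was -0.429 to 0.288 and the median -0.044. With the replicate number as a block 4 members rose in SEW against sham, 1 rose and 3 fell in BD/SEW against SEW, and the interaction had 0 calls. Over all genes the block gave 1018, 1504 and 146 calls in the same order, and the main fit 830, 1392 and 135. Signal over background was not measured, so small values are the least certain.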
